A study of Mus musculus with 6 samples.

Results

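The 32 genes described here encode subunits of the proteasome in the mouse. They are 14 genes of the 20S core (Psma1 to Psma7 and Psmb1 to Psmb7) and 18 genes of the 19S cap (Psmc1 to Psmc6, Psmd1 to Psmd4, Psmd6 to Psmd8, Psmd11 to Psmd14 and Adrm1), of 19060 genes in the table of counts. They were listed by name, not by their values in a comparison, but with earlier results of these data known. All 32 passed the filter on low counts, as did 15826 genes in all. The lowest count of any of them in any sample was 191, in mutant sample 1.

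RNA was sequenced from the proximal end of the incisor of mice aged 1 month, with 3 control and 3 mutant samples. Controls carried Fgfr1fl/fl, with the receptor gene flanked by loxP sites and no Cre by their labels, which also call them wild type. Mutants were Gli1CreER;Fgfr1fl/fl (Gli1-Cre in the labels), and incisors of both groups were taken 1 week after tamoxifen. Cre is driven by Gli1, the study's marker of the mesenchymal stem cells, so by design Fgfr1 is lost in Gli1-expressing cells and their progeny. Which cells of this bulk tissue kept the gene cannot be read from these data. The labels do not say whether each sample was 1 animal, so p-values measure the spread between these samples. In bulk tissue, fewer cells of a type and less RNA per cell cannot be told apart.

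The proteasome is the protease that breaks down proteins tagged with ubiquitin in the cytosol and nucleus of every cell. Its core is a barrel of stacked rings, in which outer alpha rings (Psma genes) form the gate and inner beta rings (Psmb genes) hold the cutting sites. The cap sits on the gate. Its base has a ring of ATPases (Psmc genes) that unfold the substrate, and its lid (most Psmd genes) removes the ubiquitin chain. Cells turn over their proteins through the proteasome and through autophagy, the route that the study of these mice followed.

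Levels are given as CPM, each sample's counts on a common scale (edgeR's CPM) after upper-quartile scaling. The control samples held at least 31060222 counts each and the mutant samples at most 11819576, so every mutant sample was shallower. Fgfr1 itself was at 529, 924 and 434 CPM in control samples 1 to 3 and at 148, 318 and 262 CPM in mutant samples 1 to 3. The receptor was thus lower in every mutant sample, with a log2 fold change of -1.37 (standard error 0.40, adjusted p of 0.0881 in edgeR). Markers of dental epithelium and ameloblasts summed to 85238 to 120837 CPM in control and to 31492 to 69601 CPM in mutant samples, while those of dental mesenchyme overlapped, at 232 to 402 CPM and 330 to 418 CPM. Among those mesenchyme markers, 1 of 6 was at 0 in a sample (Barx1). Erythroid markers were the one list of the 10 with a higher sum in every mutant sample, at 380 to 823 CPM in control and 926 to 2559 CPM in mutant samples, with 2 of 5 genes that rose, 1 that fell and none at 0 in a sample. Their part in the rise of the core genes was not tested. Skeletal muscle markers were uneven within both groups, at 8.04, 2491 and 25.7 CPM in control samples 1 to 3 and 5373, 126 and 884 CPM in mutant samples 1 to 3.

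Core genes had larger log2 fold changes, mutant over control, than cap genes. At the study's threshold of an unadjusted p under 0.05 with a change of over 1.5-fold, 6 of 14 core genes (42.9%) and 2 of 18 cap genes (11.1%) rose, and 0 fell. Among all genes tested, 10.9% rose and 8.92% fell past the same threshold. The 8 genes were Psma3, Psma4, Psma6, Psma7, Psmb1, Psmb6, Psmc6 and Psmd14. The log2 fold change was above 0 for all 14 core genes and for 12 cap genes, against 48.2% of all genes tested. With total counts only it was above 0 for 13 core and 6 cap genes, and the share of all genes is not given for that scaling. The median log2 fold change was 0.73 in the core, 0.12 in the cap and -0.040 over all genes. With total counts only these medians were 0.47, -0.15 and -0.30.

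None of these calls held over all genes. After Benjamini-Hochberg adjustment in edgeR, 0 of the 32 genes passed 0.05 in either direction, against 6.79% of all genes tested (3.72% as higher genes). At an unadjusted p under 0.05 there were 9, the 8 that rose and Psmd3, against 3180 of all 15826 genes tested. DESeq2 gave 7 genes an adjusted p under 0.05, against 1609 of all genes, and limma-voom gave 3, against 1340. The groups did not overlap for 11 genes that were higher in every mutant sample (9 core and 2 cap) and for 1 that was lower (Psmd3), against 14.1% and 16.3% of all genes.

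Transcript length moved with this difference. The principal transcripts of the core genes had a median length of 1162.5 bases and those of the cap genes 1613.5 bases. Among protein-coding genes with transcripts under 1300 bases, which number 1509, the median log2 fold change was 0.67 and 30.2% rose. It was 0.071 with 8.16% rising for the 2121 genes of 1300 to 2000 bases, and -0.15 with 5.92% for the 3734 genes of 2000 to 3200 bases. After a correction for the trend with transcript length and GC content, the core median was 0.047 with 7 of 14 genes above 0, and the cap median was -0.068 with 8 of 18 above 0. Length and GC content were corrected together, so the part of each cannot be told apart here. At the same threshold 1 of the 32 genes then rose (Psma3) and 3 fell (Psma1, Psmb3 and Psmc5). Of all 15826 genes tested, 1094 (6.91%) rose and 1143 fell after this correction. Whether the length trend came from the libraries or from the mice was not tested.

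**Figure D1:**
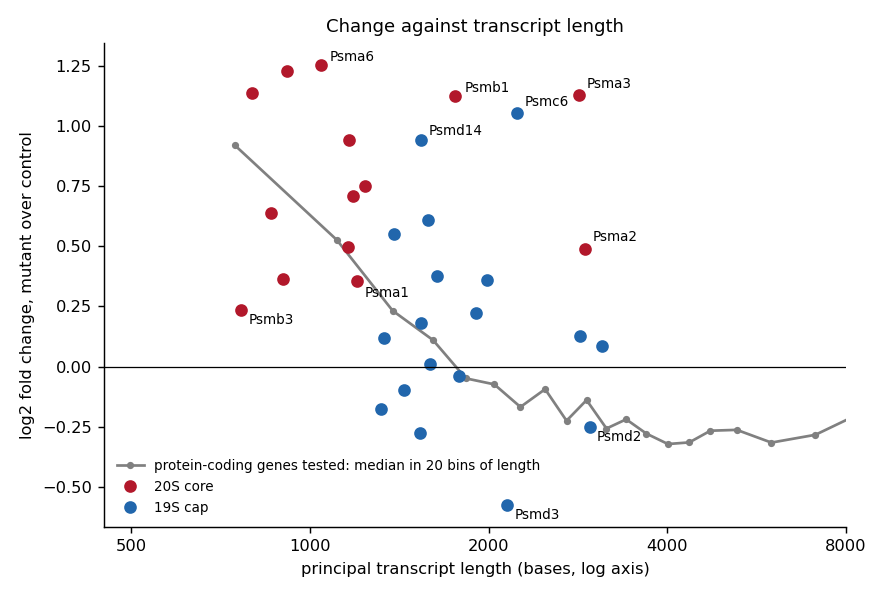
Log2 fold change of mutant over control against the length of the principal transcript (log axis, bases) for 14 core genes (red) and 18 cap genes (blue). The grey line joins the medians of protein-coding genes in 20 bins of length. It passes from 0.92 in the shortest bin, of median length 747 bases, to below 0, and most core genes lie at the short end. Among the genes well above the line are Psma3, Psmb1, Psmc6 and Psmd14. The line takes no account of GC content, and Psmc6 was at -0.064 after the length and GC correction.

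The sums over the genes gave the same picture in each sample. Core genes summed to 2282, 1008 and 1742 CPM in control samples 1 to 3 and to 3537, 2725 and 2900 CPM in mutant samples 1 to 3. All mutant samples were above all control samples, and the mean was 1.82 times higher. Cap genes summed to 1920, 1315 and 1768 CPM in control and 2102, 1684 and 1906 CPM in mutant samples, which overlapped, and the mean was 1.14 times higher. The ratio of core to cap was 0.980 ± 0.211 in control and 1.61 ± 0.0814 in mutant samples (SD, n = 3 each), without overlap. Control sample 2 had the lowest value of the 6 samples for 14 of 14 core and 11 of 18 cap genes. It was the control library highest in muscle markers and the highest of all 6 in odontoblast markers. Odontoblast markers summed to 25059, 68244 and 31055 CPM in control samples 1 to 3 and to 22757 to 28698 CPM in mutant samples. The part of either list was not tested. Without control sample 2, the mean mutant level was 1.52 times the control mean for the core, 1.03 times for the cap and 1.48 times for their ratio. In edgeR's fit without it, 6 core genes and 1 cap gene rose, against 8.88% of all genes, with medians of 0.46 and 0.00089 on the log2 scale. Mutant sample 1, the shallowest library and the highest in muscle markers, had the highest value for 11 core and 7 cap genes. In the fit without that sample, 4 core genes and 1 cap gene rose, against 12.2% of all genes, with medians of 0.52 and -0.0086. Without mutant sample 3, the next highest mutant library in muscle markers, 7 of the 32 genes rose, against 10.4% of all genes. The medians were 0.80 in the core and 0.15 in the cap.

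**Figure D2:**
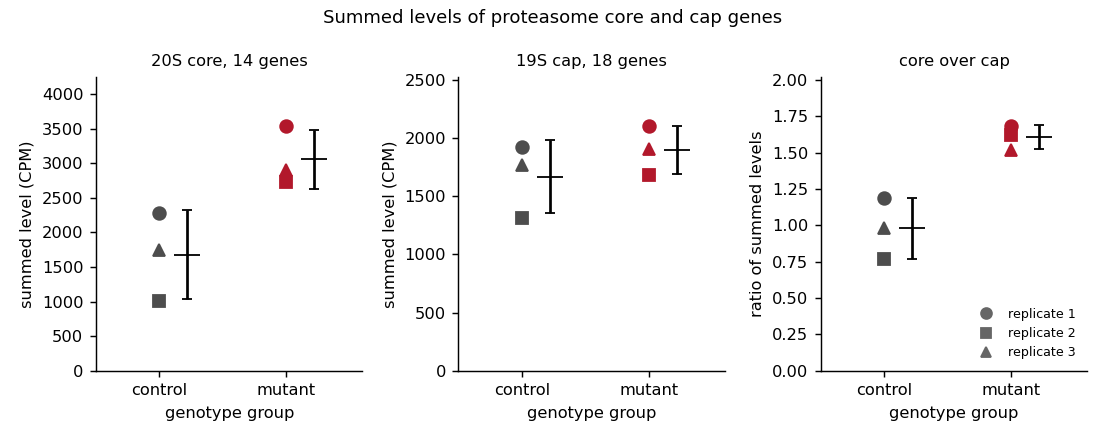
Summed CPM of the 14 core genes and the 18 cap genes and the ratio of the sums, by genotype group. Each point is a sample (its shape gives the replicate number), and the bar beside the points gives the mean and SD of 3 samples. The core sums of mutant samples (2725 to 3537 CPM) lie above those of control samples (1008 to 2282 CPM), while the cap sums overlap.

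Together the 32 genes took 0.447, 0.272 and 0.371% of all counts in control and 0.490, 0.437 and 0.420% in mutant samples, which overlapped. The mitochondrially encoded protein genes moved in the same direction, from 0.715 to 0.748% of counts in control to 4.29 to 6.64% in mutant samples, as did ribosomal protein genes, from 5.01 to 12.3% to 17.9 to 18.4%. Their part in the change of the proteasome genes was not tested. Each of the 8 genes that rose was also called with the control counts thinned to the mean total of the mutant samples, 9484797 counts.

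Levels per length were less even among the subunits in the mutant samples. The SD of log2 CPM per kilobase over the 32 genes was 0.948, 0.716 and 0.824 in control and 1.21, 1.12 and 1.06 in mutant samples, without overlap. These levels carry no correction for the length trend, in which the shortest protein-coding genes rose most (median 0.92 in the bin of median length 747 bases). The part of that trend in this spread was not tested. In mean CPM per kilobase, the highest in control samples was Psmb6 (226), followed by Psmb3 (154) and Psma7 (149), and the lowest were Psmd11 (21.1) and Psmd12 (22.6). Psmb6 (498) and Psma7 (350) were the highest in the mutant samples. The order was much the same in both groups (over 32 genes, Pearson's r 0.91 and Spearman's rho 0.88 for log2 CPM per kilobase, a description over genes from the same libraries).

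The promoters of the genes were read for the letters that NRF transcription factors bind. Nfe2l1 encodes the factor that raises proteasome genes when proteasome activity falls, and it binds the antioxidant response element, searched here as TGACNNNGC on both strands. Of the 32 genes, 26 had a RefSeq window from 250 bases before to 50 bases after the start (GRCm38.p6). The letters were found in 5 of 26 windows (19.2%), in 2 of 11 core windows and 3 of 15 cap windows, against 12.5% of the windows of all 27025 genes. CCAAT, searched in the same way, was in 11 of 26 windows (42.3%) against 37.9% of all genes. The stretches around 4 of the matches are shown because their genes cover both the largest rise of the beta ring and a gene that did not pass the test, with the match in capitals and read 5′ to 3′ on the strand of the match.
Psmb5: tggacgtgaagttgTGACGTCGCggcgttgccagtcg
Psmb6: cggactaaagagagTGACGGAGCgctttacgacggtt
Psmc6: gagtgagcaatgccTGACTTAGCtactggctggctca
Psmd12: gaggggggcaaatgTGACACAGCaga
They lie at chr14:54618020-54618056 on the minus strand (Psmb5), chr11:70525334-70525370 on the plus strand (Psmb6), chr14:45329583-45329619 on the minus strand (Psmc6) and chr11:107479278-107479303 on the minus strand (Psmd12). The matches began 47, 9, 227 and 247 bases before the start, in that order. The 5 genes with a match had a median log2 fold change of 0.36 and 2 of them rose, and the 21 genes without one had a median of 0.36 with 5 that rose. A match is a run of letters and not a shown binding site.

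The alpha ring had the largest rises. All 7 of its genes had log2 fold changes above 0, with a median of 0.94, and 4 rose. The group medians after the length and GC correction were 0.15 for the alpha ring and -0.24 for the beta ring, whose median before it was 0.64 with 2 of 7 genes that rose.

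Psma6, an alpha subunit on chromosome 12 of GRCm38 from 55384222 to 55418454, had the largest log2 fold change of the 32 genes. It was at 153.9, 68.7 and 116.8 CPM in control samples 1 to 3 and at 304.2, 214.7 and 291.4 CPM in mutant samples 1 to 3. Every mutant sample was above every control sample. The log2 fold change was 1.26 (standard error 0.33, unadjusted p of 0.00522, adjusted p of 0.0654 in edgeR). The length and GC correction left 0.31.

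Psma7 (chromosome 2, 180036374 to 180042433), the alpha subunit with the highest level per length, was at 190.6, 78.5 and 140.4 CPM in control and 320.2, 262.0 and 378.1 CPM in mutant samples. The groups did not overlap. Its log2 fold change was 1.23 (standard error 0.35, unadjusted p of 0.00766, adjusted p of 0.0834), and 0.47 after the correction.

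Psma3 (chromosome 12, 70974621 to 70996347) differed from these in length, with a principal transcript of 2846 bases against 1042 for Psma6. It was at 131.7, 51.6 and 100.1 CPM in control and 234.6, 185.5 and 200.2 CPM in mutant samples, without overlap. The log2 fold change was 1.13 (standard error 0.35, unadjusted p of 0.0113, adjusted p of 0.105). After the correction it was 0.63 with an unadjusted p of 0.0439, and Psma3 was then the single gene of the 32 that rose. A processed pseudogene, Gm13835, matches its transcript at 100% over 665 bases, so that reads of the pair may be split between them.

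Psma4 (chromosome 9, 54950790 to 54958030) was at 120.8, 65.4 and 92.5 CPM in control and 227.4, 151.2 and 156.4 CPM in mutant samples. Its groups were also apart, with a log2 fold change of 0.94 (standard error 0.30, unadjusted p of 0.0136, adjusted p of 0.117). The value after the correction was -0.055, and without mutant replicate 1 the call was lost (unadjusted p of 0.0560).

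The other alpha genes did not pass the test. Psma5 was higher in every mutant sample, with a log2 fold change of 0.75 and an unadjusted p of 0.0616. Psma2 (0.49) and Psma1 (0.36) overlapped between the groups. Psma1 had the lowest value of the ring, with 81.7, 39.7 and 67.1 CPM in control and 88.0, 66.9 and 86.8 CPM in mutant samples (unadjusted p of 0.269). The transcript of Psma2 spans 2911 bases and that of Psma1 1201 bases. After the correction Psma1 fell, at -0.66 with an unadjusted p of 0.00604.

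**Figure D3:**
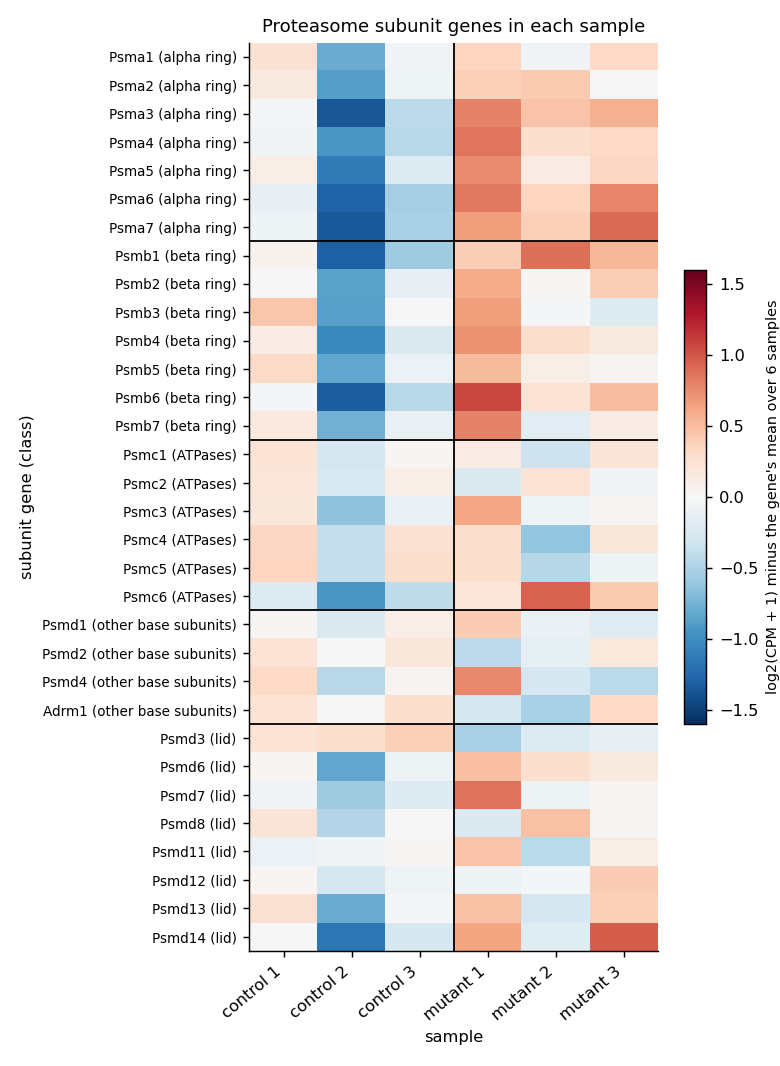
Level of each of the 32 genes in each sample as log2(CPM + 1) minus the gene's mean over the 6 samples, with genes in rows by class and samples in columns. Control sample 2 is the deepest blue through the core, where it is the lowest sample for 14 of 14 genes, and mutant samples are red through most of the alpha and beta rings.

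In the beta ring, both genes that rose were about 2-fold higher, and 1 of them encodes a cutting site. Psmb6 carries the caspase-like activity and lies on chromosome 11 from 70525367 to 70527858. Its level was 252.5, 101.6 and 186.7 CPM in control and 535.6, 297.1 and 358.7 CPM in mutant samples, so that the groups did not overlap. The log2 fold change was 1.14 (standard error 0.39, unadjusted p of 0.0178, adjusted p of 0.137) and 0.35 after the correction. Without mutant replicate 1 the unadjusted p was 0.0702.

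Psmb1, a structural beta subunit on chromosome 17 from 15475021 to 15499751, was at 301.6, 117.1 and 195.6 CPM in control and 383.3, 535.2 and 421.5 CPM in mutant samples. No mutant sample reached down to the control range. Its log2 fold change was 1.13 (standard error 0.37, unadjusted p of 0.0147, adjusted p of 0.122) and 0.63 after the correction, when its unadjusted p was 0.0590. Without mutant replicate 2 the unadjusted p was 0.0584.

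The other catalytic genes had smaller values. Psmb5, which carries the chymotrypsin-like activity and is the main target of proteasome inhibitors, had a log2 fold change of 0.36 (unadjusted p of 0.288), and Psmb7, which carries the trypsin-like activity, had 0.50 (unadjusted p of 0.184). Both overlapped between the groups. Psmb4 (0.71, unadjusted p of 0.0671) and Psmb2 (0.64, unadjusted p of 0.0590) are structural and were higher in every mutant sample without passing the test.

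Psmb3, another structural subunit and the shortest transcript of the 32 at 766 bases, had the lowest value of the core. It was at 165.8, 66.5 and 121.9 CPM in control and 193.6, 118.8 and 105.4 CPM in mutant samples, which overlapped (log2 fold change of 0.24, standard error 0.38, unadjusted p of 0.551). After the correction it fell, at -0.68 with an unadjusted p of 0.0156.

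**Figure D4:**
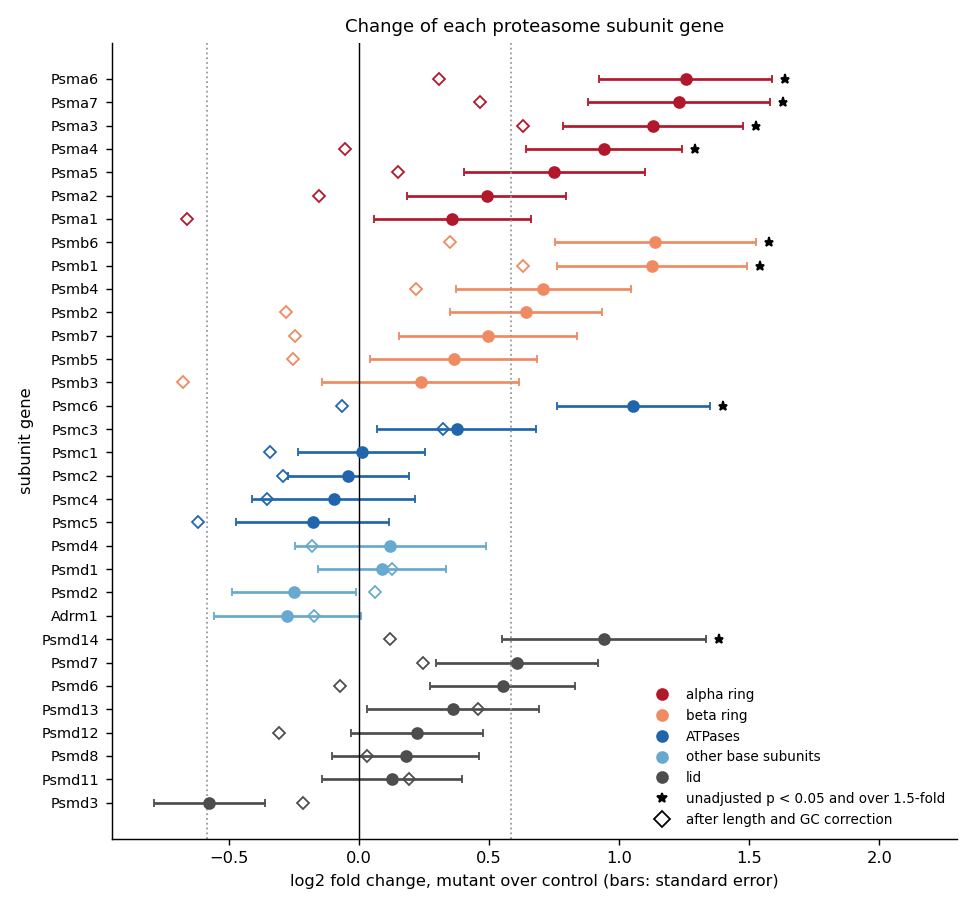
Log2 fold change of mutant over control for each of the 32 genes (filled points, bars for 1 standard error), by class. Open diamonds give the value after the length and GC correction, stars mark the 8 genes past the study's threshold, and dotted lines stand at 1.5-fold. All core genes lie above 0 before the correction (13 of 14 with total counts only, without Psmb3), and 7 of 14 do after it.

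Of the 6 ATPases of the base, 1 rose, and the median of their log2 fold changes was -0.015. The gene that rose was Psmc6 (chromosome 14, 45329788 to 45349705), at 73.7, 44.4 and 64.5 CPM in control and 97.8, 165.8 and 115.3 CPM in mutant samples, without overlap. Its log2 fold change was 1.05 (standard error 0.29, unadjusted p of 0.00688, adjusted p of 0.0778). The call held without each of the 6 samples in turn, with values from 0.80 to 1.21. Its transcript has the lowest GC content of the 32, at 37.0%, and the value after the length and GC correction was -0.064.

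The ATPases are made as a ring of 6 different proteins, and the other 5 genes lay between -0.18 and 0.38 on the log2 scale. Psmc5 had the lowest value, with 127.3, 76.6 and 121.6 CPM in control and 121.8, 72.1 and 94.1 CPM in mutant samples. These groups overlapped (log2 fold change of -0.18, standard error 0.29, unadjusted p of 0.559). The values of Psmc1, Psmc2, Psmc3 and Psmc4 were 0.010, -0.041, 0.38 and -0.097, with overlap in each. After the correction Psmc5 fell, at -0.62 with an unadjusted p of 0.0144.

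The other base genes encode the scaffold proteins Psmd1 and Psmd2 and the ubiquitin receptors Psmd4 and Adrm1. None of the 4 passed the test, and the groups overlapped for each. Psmd4 had the highest value, at 109.9, 64.5 and 90.9 CPM in control and 150.8, 73.1 and 65.1 CPM in mutant samples (log2 fold change of 0.12, standard error 0.37, unadjusted p of 0.752). Adrm1 had the lowest, at 58.2, 49.4 and 59.7 CPM in control and 41.7, 34.4 and 62.2 CPM in mutant samples (-0.28, standard error 0.28, unadjusted p of 0.360). Mutant sample 3 had the highest level of Adrm1 of all 6, and the other mutant samples had the lowest. Psmd1 and Psmd2 were at 0.087 and -0.25.

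In the lid, 1 of 8 genes rose, and the median log2 fold change was 0.29. Psmd14 (chromosome 2, 61711694 to 61800376) encodes the deubiquitinase that cuts the chain from the substrate. It was at 84.8, 37.1 and 70.3 CPM in control and 131.2, 73.2 and 165.0 CPM in mutant samples. Mutant sample 2 lay within the control range, so the groups overlapped although the threshold was passed. The log2 fold change was 0.94 (standard error 0.39, unadjusted p of 0.0427, adjusted p of 0.228), and 0.12 after the correction. The call was the least steady of the 8: it was lost in 4 of the 6 fits that each left out 1 sample, all but those without control replicate 1 and without mutant replicate 2. It was also lost with edgeR's TMM scaling (unadjusted p of 0.0610) and with total counts only (0.0935).

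Psmd3, a lid scaffold subunit on chromosome 11 from 98682554 to 98695979, went the other way. It was at 85.7, 89.0 and 96.0 CPM in control and 51.1, 63.3 and 67.2 CPM in mutant samples, and it was the only one of the 32 genes with every mutant sample below every control sample. Its log2 fold change was -0.57 (standard error 0.21, unadjusted p of 0.0274, adjusted p of 0.177), just within 1.5-fold, and -0.22 after the correction. With TMM scaling it passed the threshold at -0.67, as it did with total counts only, DESeq2's size factors and DESeq2.

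Psmd7, the partner of Psmd14, had a log2 fold change of 0.61 (unadjusted p of 0.0859) with overlapping groups. Psmd6 had 0.55 (unadjusted p of 0.0825) and was higher in every mutant sample. The values of Psmd8, Psmd11, Psmd12 and Psmd13 ran from 0.13 to 0.36, with overlap in each.

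Among the 32 genes the log2 fold change went down with transcript length (Pearson's r -0.30, Spearman's rho -0.35) and with GC content (r -0.50, rho -0.41). These describe genes from the same 6 libraries, and genes are not independent replicates. Over all 13805 protein-coding genes tested with a length, the values for length were -0.16 and -0.25.

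Reads of some subunits can also fall on near-identical copies. Processed pseudogenes that match a subunit transcript at 90% identity or more over at least 300 bases were in the table for 11 of the 32 genes (8 core and 3 cap), 14 pseudogenes in all. They summed to 31.4, 17.5 and 25.7 CPM in control and 153, 107 and 92.3 CPM in mutant samples, which did not overlap. Of the 13 that were tested, 10 rose and 0 fell (edgeR, unadjusted p under 0.05 and over 1.5-fold). Among the 10, Psmb6-ps2, Gm5406 and Gm14830 were at no more than 0.146 CPM in any control sample. They passed the filter on low counts only through the mutant samples. For such genes a rise was nearly fixed in advance, so the count of 10 is a description and not a test. Among all 15826 genes tested, 1726 rose (10.9%) and 8.92% fell. Of the 13805 protein-coding genes among them, 1095 rose (7.93%), so the share was higher among genes not annotated as protein-coding. Among those named after their parents, Psmb6-ps2 was at 0.087, 0.055 and 0.087 CPM in control and 1.75, 1.45 and 0.907 CPM in mutant samples. Psma5-ps was at 2.21, 0.989 and 2.05 CPM in control and 11.6, 4.95 and 18.8 CPM in mutant samples. Both rose. The counts of all 14 were 1.79 to 1.95% of those of their parent genes in control and 4.59 to 6.28% in mutant samples. When their counts were added to the parents, an alternative chosen after the data were seen, 9 of the 32 genes rose, with Psma5 as the additional one. In that fit 10.9% of all genes rose. For Adrm1, a copy annotated as protein-coding, Gm9774, matches at 99.8% over 1358 bases and was not in this sum. Nor was A730017L22Rik, a processed transcript that matches Psmd11 at 97.9% over 1501 bases. Its counts were 122, 135 and 94.7 in control and 1.1, 29 and 15 in the shallower mutant samples. In the sum, Gm14048, another copy of Psmd11, was lower in every mutant sample without passing the test (edgeR, log2 fold change of -2.72, unadjusted p of 0.0659).

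Gene models of 7 subunits also overlap other genes. Sirt3 lies antisense to Psmd13 over 342 bases, Nek6 overlaps Psmb7 and Slc39a13 overlaps Psmc3 on the opposite strand, and AW209491 overlaps Psma2 on the same strand. Whether counting used the strand is not given in the sources used here, so reads of such pairs may not have been told apart.

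Around the core and cap, 38 genes of partners, assembly and supply are described here, of which 35 were in the table and tested. Of these, 5 rose (14.3%) and 1 fell, against 10.9% and 8.92% of all genes tested, and the median log2 fold change was 0.26, or 0.032 after the length and GC correction. An adjusted p under 0.05 was reached by 2 (edgeR, over all genes), against 6.79% of all genes. The groups did not overlap for 6 that were higher and 4 that were lower in every mutant sample, against 14.1% and 16.3% of all genes. Psmb11, Paaf1 and Ddi1 were not analysed here.

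Sem1, the smallest lid subunit, rose. It was at 201, 90.4 and 157 CPM in control and 447, 327 and 363 CPM in mutant samples, without overlap (log2 fold change of 1.34, standard error 0.33, adjusted p of 0.0514). After the length and GC correction its value was -0.15.

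Of 8 assembly factors, 3 rose (37.5%) and 0 fell, against 10.9% and 8.92% of all genes tested. Their median transcript length was 1244.5 bases, and of the protein-coding genes with transcripts under 1300 bases 30.2% rose. Psmg4, a chaperone of the alpha ring, was at 17.4, 5.72 and 13.3 CPM in control and 91.0, 50.9 and 45.3 CPM in mutant samples. This was the largest change among the related genes, with a log2 fold change of 2.36 (standard error 0.48, adjusted p of 0.0445) and 1.14 after the correction, for a transcript of 555 bases. Pomp, which matures the core, was at 95.1, 51.1 and 69.5 CPM in control and 133, 116 and 119 CPM in mutant samples, without overlap (0.77, standard error 0.27, unadjusted p of 0.0206). Its value after the correction was 0.41, under 1.5-fold. Psmd10 (gankyrin), a chaperone of the base, was at 24.3, 9.92 and 15.1 CPM in control and 50.6, 20.3 and 44.3 CPM in mutant samples, with mutant sample 2 in the control range (1.22, standard error 0.47, unadjusted p of 0.0319). The correction left 0.22, with an unadjusted p of 0.523.

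Among the immune forms of the cutting subunits and the tissue-specific alpha subunit Psma8, 0 of 4 genes passed the test, and among the activators and the inhibitor Psmf1, 0 of 5 did. Psmb8, an interferon-inducible form, was at 37.7, 12.4 and 11.2 CPM in control and 46.3, 40.5 and 46.5 CPM in mutant samples, without overlap (log2 fold change of 1.12, unadjusted p of 0.0509). After the correction Psmb8 was at 1.13 with an unadjusted p of 0.0324 (adjusted p of 0.262), which is past the study's threshold. Psme2, a subunit of the interferon-inducible activator, was at 125, 47.9 and 78.0 CPM in control and 152, 137 and 134 CPM in mutant samples (0.76, unadjusted p of 0.0571), and at 0.10 after the correction. Macrophage markers, of a cell type known for such forms, summed to 124 to 366 CPM in control and 270 to 327 CPM in mutant samples, with none of the 6 at 0 in a sample, and their part was not tested.

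Of the genes that supply or activate ubiquitin, Rps27a, which encodes ubiquitin fused to a ribosomal protein, rose. It was at 1189, 462 and 931 CPM in control and 3489, 2679 and 3392 CPM in mutant samples without overlap (log2 fold change of 1.89, standard error 0.42, adjusted p of 0.0464), and at 0.84 after the correction. Ubb, a polyubiquitin gene, had 0.26 with overlap. Uba1, the main enzyme that activates ubiquitin, was lower in every mutant sample, at 242, 246 and 275 CPM against 205, 164 and 189 CPM, without passing the test (-0.45, unadjusted p of 0.0738), and its value after the correction was -0.0045.

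Ube3c, a ubiquitin ligase bound to the cap, fell. It was at 57.0, 57.7 and 69.6 CPM in control and 32.1, 25.7 and 34.6 CPM in mutant samples, without overlap (log2 fold change of -0.997, standard error 0.25, adjusted p of 0.0525), and at -0.81 after the correction. None of the 6 regulators passed the test, Nfe2l1 among them at -0.21, and at 0.39 after the correction.

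**Figure D5:**
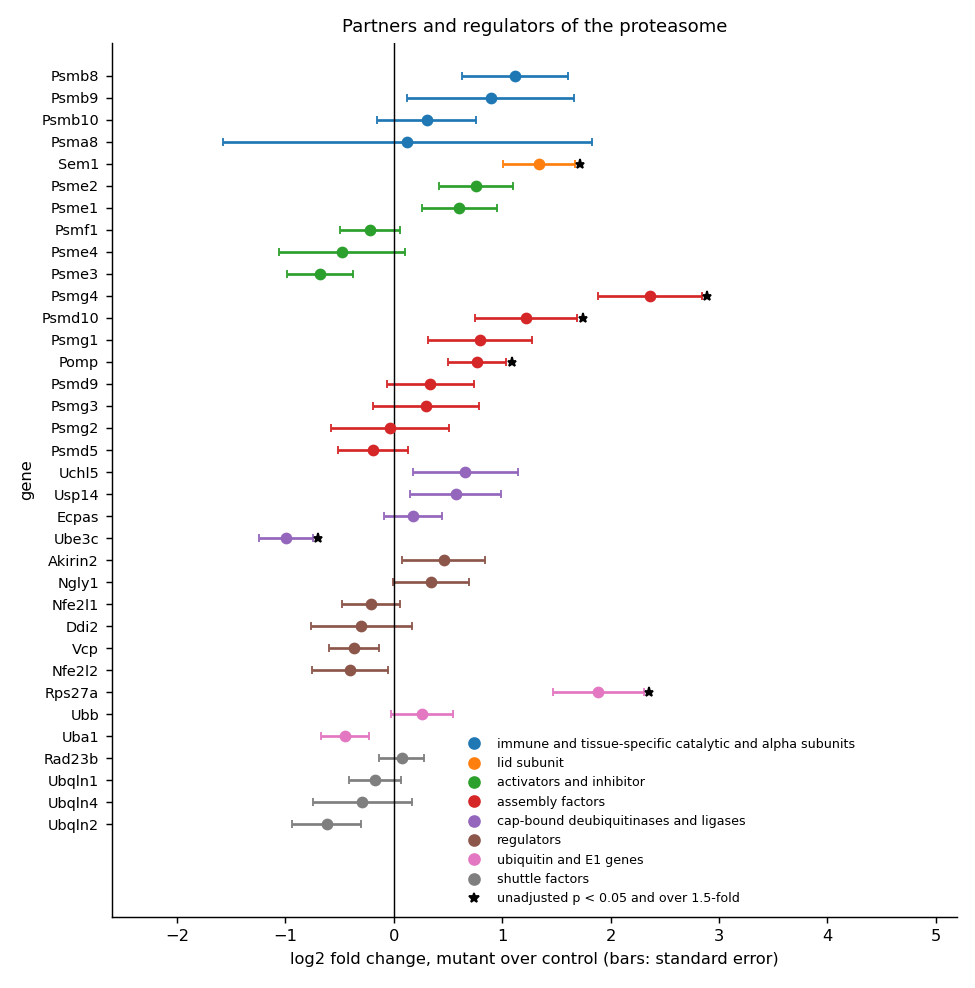
Log2 fold change of mutant over control for 35 related genes tested, by class (points, with bars for 1 standard error), with stars on the 6 past the study's threshold. Psmg4 (2.36) and Rps27a (1.89) lie farthest to the right, and Ube3c (-0.997) farthest to the left.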

How the data were processed

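RNA from 3 control and 3 mutant incisor samples was sequenced as single reads. The authors trimmed and aligned the reads in Partek Flow to mm10 (GRCm38). The submitters' processing notes also list TopHat2 2.0.8. The authors deposited estimated counts per gene, not normalized. Their counting model and filter are not given in the sources used here. A second deposited table of their own comparison (p-values, ratios, fold changes, group means) was not used.

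The counts were rounded and compared with edgeR 4.0.16 in R 4.3.3: upper-quartile scaling, the default filter (minimum count 10, total 15), no covariate beside genotype, two-sided quasi-likelihood tests, and p-values adjusted by Benjamini-Hochberg over 15826 genes. A standard error is the log2 fold change divided by the root of its F statistic. The test was checked on simulated data. DESeq2 1.42.0 and limma 3.58.1 were alternatives, as were other scalings and filters, thinning, the replicate number as a block, leaving out each sample, and an offset for the trend of counts with transcript length and GC content, learned from protein-coding genes averaging 50 counts or more. GENCODE M21 (GRCm38) gave lengths and positions, with 18637 direct matches of symbols, 216 through synonyms and 207 unmatched. Lengths are of the principal transcript. Near-identical copies were found with BLAST 2.17.0. Promoters came from RefSeq.

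Values in every sample are given for genes past the study's threshold, for the highest and lowest of each class, and, among related genes past the threshold or not overlapping, for the 12 with the smallest p, of which 3 are not reported here. Nor are 1 promoter stretch and 1 marker gene. The members and lists were chosen with earlier results of these data known.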

Additional observations from a re-analysis of the deposited data

Results flagged for a closer look

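The pseudogenes near-identical to proteasome subunits, which lie outside the genes compared, had a higher sum in every mutant sample. The lowest mutant sample held 92.3 CPM summed over the 14 pseudogenes, above the highest control sample at 31.4 CPM. In mutant sample 1 the largest part came from Gm13835, a copy of Psma3, at 3.00, 1.76 and 2.34 CPM in control and 57.0, 28.7 and 19.9 CPM in mutant samples. In the other 5 samples it came from Gm3375, a copy of Psmb5, at 16.1, 7.92 and 13.1 CPM in control and 43.2, 39.8 and 21.97 CPM in mutant samples. How reads were assigned between copies and parents was not tested.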

How the results depend on the processing

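Of the 32 genes, 8 rose and 0 fell past the study's threshold, with 0 at an adjusted p under 0.05. Psmd3 was the 1 gene that fell with edgeR's TMM, with total counts only, with DESeq2's size factors in edgeR and with DESeq2. Of all 15826 genes, 1733, 2335, 1530 and 1496 fell in these fits, in that order. Total counts only moved the cap median from 0.12 to -0.15 and the median of all genes from -0.040 to -0.30, and TMM moved the latter to -0.13. An adjusted p under 0.05 was reached by 7 genes with DESeq2, 3 with limma-voom and 2 with the replicate number as a block. Of all 15826 genes tested, 1609, 1340 and 508 reached it, in that order. The length and GC correction gave 1 higher and 3 lower genes, against 1094 and 1143 of all 15826 genes. The core median was then 0.047 in place of 0.73, and the difference between core and cap 0.12 in place of 0.61. With the block as well, 1 gene rose and 3 fell, against 790 and 826 of all genes. The core median was 0.053 and the difference 0.15. Without each replicate in turn, the number that rose was lowest at 5, without mutant replicate 1, and highest at 11, without control replicate 1, while 0 or 1 fell. Of all genes tested, 12.2% and 10.8% rose in those fits, in that order. The core median then ran from 0.46 (without control replicate 2) to 1.00 (without control replicate 1), the cap median from -0.0086 (without mutant replicate 1) to 0.21 (without mutant replicate 2), and their difference from 0.46 to 0.79, with 0 genes at an adjusted p under 0.05 in each of these fits.

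The replicate numbers pair no samples by the labels. Deviations of same-numbered samples correlated at 0.074, 0.023 and 0.088. The block gave 9 core and 3 cap genes that rose, against 9.5% of all genes tested.

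Single genes changed sign as follows, each with its log2 fold change. The length and GC correction did so for Psma1 (-0.66), Psma2 (-0.15), Psma4 (-0.055), Psmb2 (-0.28), Psmb3 (-0.68), Psmb5 (-0.25), Psmb7 (-0.24), Psmc1 (-0.34), Psmc6 (-0.064), Psmd2 (0.060), Psmd4 (-0.18), Psmd6 (-0.073) and Psmd12 (-0.31). With the block in addition they were Psma1 (-0.66), Psma2 (-0.15), Psma4 (-0.058), Psmb2 (-0.28), Psmb3 (-0.67), Psmb5 (-0.24), Psmb7 (-0.26), Psmc1 (-0.35), Psmc6 (-0.12), Psmd2 (0.034), Psmd4 (-0.25), Psmd6 (-0.069), Psmd8 (-0.013) and Psmd12 (-0.33). Total counts only did so for Psmb3 (-0.019), Psmc1 (-0.26), Psmd1 (-0.18), Psmd4 (-0.15), Psmd8 (-0.058), Psmd11 (-0.16) and Psmd12 (-0.044), TMM for Psmc1 (-0.085) and Psmd1 (-0.012), DESeq2's size factors for Psmc1 (-0.017), DESeq2 for Psmc1 (-0.018) and limma-voom for Psmc1 (-0.016) and Psmd4 (-0.045). Among the fits without 1 replicate, the signs changed for Psmc2 (0.049) and Psmc4 (0.040) without control replicate 1, for Psmb3 (-0.049), Psmc1 (-0.11), Psmd1 (-0.0073) and Psmd4 (-0.063) without control replicate 2, for Psmc2 (0.00028) without control replicate 3, for Psmb3 (-0.090), Psmc1 (-0.063), Psmc2 (0.046), Psmd1 (-0.14), Psmd4 (-0.37) and Psmd11 (-0.12) without mutant replicate 1, for Psmc4 (0.13) and Psmd8 (-0.051) without mutant replicate 2 and for Psmc1 (-0.11) without mutant replicate 3. Across these fits the values of the genes that changed sign ran up to 0.56 for Psmb3, 0.19 for Psmd1, 0.33 for Psmd4, 0.34 for Psmd8 and 0.32 for Psmd11, and down to -0.29 for Psmc4. Of the 8 genes that rose before the correction, Psma4 and Psmc6 are among those that changed sign. The cause of these changes was not tested. Depth limits the mutant samples most, where 3 counts are 0.57 CPM in sample 1, far below the levels of the 32 genes.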
